A study of Rattus norvegicus with 12 samples.

Results

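Prostaglandin synthesis and reception was followed through 10 genes, found by symbol among 17450 genes in a count table. They were chosen by function, but with earlier results of these data known. They are Pla2g4a, Ptgs1, Ptgs2, Ptges, Ptgis, Ptger2, Ptger3, Ptger4, Slco2a1 and Hpgd. All 10 were in the table, and 9 had enough counts to be tested among 13761 genes. RNA came from esophageal tissue of rats. The 3 BE samples followed esophagoduodenostomy (EDA), surgery that connects esophagus and duodenum and exposes the esophagus to reflux from the duodenum. It is used in rats as a model of Barrett's esophagus. The 3 NC samples had no treatment. Each sample gave an input library, read as gene counts, and a library immunoprecipitated (IP) for N6-methyladenosine (m6A), a methyl mark on RNA, read as a list of peaks. The labels give no strain, sex, age or time after surgery and do not say that samples came from separate animals. The p-values therefore speak only of the spread among these samples, part or all of which may be technical.

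Prostaglandins are lipid messengers made inside cells from arachidonic acid. A phospholipase frees the acid from the membrane, a cyclooxygenase turns it into the intermediate PGH2, and a terminal synthase turns PGH2 into a single prostaglandin such as PGE2 or prostacyclin. PGE2 acts on the EP family of G protein-coupled receptors, is carried into cells by the transporter encoded by Slco2a1, and is inactivated there by the dehydrogenase encoded by Hpgd. In the gut lining and in reflux disease the pathway is known for its cyclooxygenases, the targets of aspirin-like drugs.

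The tissue itself differed between the groups. Levels are CPM, each gene's counts relative to the library's total over tested genes after scaling by edgeR's TMM factors, from libraries of 11213531 to 17471748 counts. Summed markers of striated muscle reached 93669 to 104640 CPM in NC and 4507 to 6029 in BE, and 17 of 18 tested fell. Squamous markers summed to 35889 to 48348 CPM in NC and 59781 to 64925 in BE, and 10 of 13 tested rose. Markers of columnar epithelium summed to 73.5 to 82.7 CPM in NC and to 203, 174 and 131 in BE replicates 1 to 3. Only 2 of the 10 columnar markers in the table could be tested, of which 1 rose, while Vil1 and Muc2 had no counts in BE and Krt20 and Fabp2 none in NC. BE replicate 1 correlated least with the others of its group and carried 10414 CPM of hepatocyte markers, against 67.7 and 80.3 in BE replicates 2 and 3. It also had the highest columnar sum, and the part of hepatocytes in that sum was not tested. In tissue RNA, fewer cells of a type and less RNA per cell cannot be told apart.

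Of the 9 tested genes, 5 rose, 2 fell and 2 did not pass the test in BE, at an adjusted p under 0.05 (quasi-likelihood test in edgeR, Benjamini-Hochberg adjustment over all genes). Over all genes tested, 21.8% rose and 21.8% fell, so 43.6% were called in some direction. The median log2 fold change of BE over NC was 0.92 over the 9 genes and 0.03 over all genes. Because the genes were chosen with earlier results known, these shares and medians are a description and not a test of the set. The risers were the phospholipase Pla2g4a, both cyclooxygenases, the PGE2 synthase Ptges and the transporter Slco2a1. The prostacyclin synthase Ptgis and the degrading enzyme Hpgd fell. With library totals in place of TMM factors, the split over all genes moved to 4536 rises and 2162 falls, from 2999 and 2996, and the median to 0.32. The same 5 genes rose under that scaling.

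**Figure D1:**
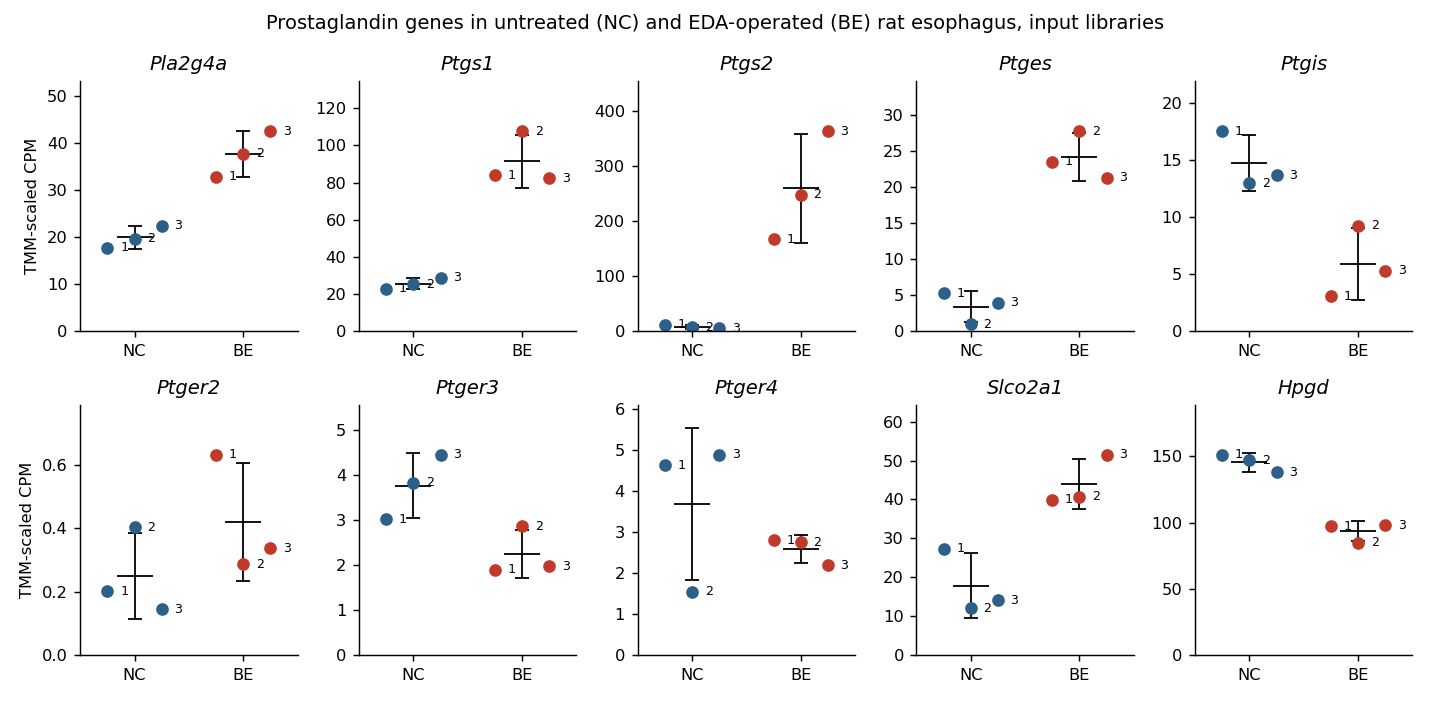
TMM-scaled CPM of the 10 genes in each input library, NC in blue and BE in red, with replicate numbers beside the points and a bar at the mean ± SD (n = 3). Each panel has its own linear axis from 0. Ptgs2 runs from 5.67 to 11.6 in NC and from 167 to 364 in BE, while Ptger2 and Ptger4 overlap between the groups.

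The 3 enzymes at the center of PGE2 synthesis rose together, and the 250 bases before each of their gene starts are shown for that reason, from RefSeq annotation of the rat assembly GRCr8. Capitals mark matches, on either strand, to the E-box CACGTG, the C/EBP motif TTNNGNAA, the GC box GGCGGG and the NF-kB motif GGGANNNNCC, where N is any base. The windows are chr13:64713813-64714062 on the plus strand for Ptgs2, chr3:34586988-34587237 on the minus strand for Ptges and chr3:39981169-39981418 on the plus strand for Ptgs1.
Ptgs2: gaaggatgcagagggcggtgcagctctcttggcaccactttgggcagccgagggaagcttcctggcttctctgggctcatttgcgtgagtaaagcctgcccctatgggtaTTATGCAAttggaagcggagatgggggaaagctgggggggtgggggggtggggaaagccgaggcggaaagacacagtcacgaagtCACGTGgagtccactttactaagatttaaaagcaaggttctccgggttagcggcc
Ptges: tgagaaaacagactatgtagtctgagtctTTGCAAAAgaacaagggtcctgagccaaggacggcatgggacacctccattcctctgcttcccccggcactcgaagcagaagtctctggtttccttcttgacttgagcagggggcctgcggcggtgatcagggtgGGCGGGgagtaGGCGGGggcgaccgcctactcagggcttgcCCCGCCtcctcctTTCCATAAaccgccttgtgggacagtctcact
Ptgs1: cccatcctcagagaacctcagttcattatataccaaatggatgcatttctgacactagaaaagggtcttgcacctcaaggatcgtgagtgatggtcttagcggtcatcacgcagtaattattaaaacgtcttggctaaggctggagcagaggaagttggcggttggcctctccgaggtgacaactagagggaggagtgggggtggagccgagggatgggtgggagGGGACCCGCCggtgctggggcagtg

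The Ptgs2 window held 1 E-box, 55 to 50 bases before the start, and 1 C/EBP match, 140 to 133 bases before it. The Ptges window held 3 GC boxes, of which the nearest lay 45 to 40 bases before the start, and C/EBP matches at 221 to 214 and 32 to 25 bases. In the Ptgs1 window a single GC box at 21 to 16 bases lay inside the NF-kB match at 25 to 16 bases, so these are the same letters counted under both motifs. Among 33469 rat windows of this length, 5.59% held the E-box, 37.2% the C/EBP motif, 29.4% the GC box and 16.4% the NF-kB motif. Searches of these 3 windows for the AP-1 motif TGANTCA, the CRE core TGACG and the TATA box TATAAA found no match, and those letters occur in 6.34%, 18.2% and 12.9% of all windows. Of the 10 genes, 9 had a window. None of the motifs searched was in all 3 sequences. A match is a string of letters and was not tested as a binding site.

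Pla2g4a, cytosolic phospholipase A2, frees arachidonic acid from membranes. It stood at 32.8, 37.7 and 42.5 CPM in BE replicates 1 to 3 and at 17.7, 19.6 and 22.4 in NC replicates 1 to 3. Every BE library lay above every NC library, as was the case for 28.2% of all genes tested. Its log2 fold change was 0.92 ± 0.18 (SE), a 1.89-fold rise (edgeR adjusted p = 0.00201).

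Ptgs1 encodes cyclooxygenase 1, the form that most tissues make at all times. Its levels were 84.0, 107.7 and 82.4 CPM in BE and 22.8, 25.2 and 28.7 in NC. The groups were far apart beside the spread within each, and the log2 fold change was 1.83 ± 0.16 (SE), a 3.57-fold rise (edgeR adjusted p = 1.18e-05).

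Ptgs2 encodes cyclooxygenase 2, the inducible form. It reached 167, 248 and 364 CPM in BE replicates 1 to 3, against 11.6, 6.85 and 5.67 in NC. The lowest BE library lay far above the highest NC library. The log2 fold change of 5.03 ± 0.44 (SE) is a 32.6-fold rise (edgeR adjusted p = 0.000376), and by fold change it stood at place 106 among the 13761 genes tested. Leaving out each library in turn gave log2 fold changes of 4.71 to 5.37, with 5.31 without BE replicate 1.

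Neutrophils and macrophages also make cyclooxygenase 2. Neutrophil markers, of which 3 of 7 tested rose and Mpo had no counts in BE, summed to 441, 696 and 135 CPM in BE replicates 1 to 3 and to 44.8 to 99.9 in NC. BE replicate 3, with the highest Ptgs2, had the lowest neutrophil sum of the BE libraries. Macrophage markers summed to 339 to 434 CPM in BE and 428 to 886 in NC, and 3 of 10 tested fell while none rose. The part of the cell makeup in the Ptgs2 rise was not tested.

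The balance of the cyclooxygenases moved with it. Ptgs2 took 66.6% of the Ptgs1 and Ptgs2 counts in BE replicate 1 (95% Wilson interval 65.3 to 67.9), 69.7% in BE replicate 2 (68.6 to 70.8) and 81.5% in BE replicate 3 (80.7 to 82.4). In NC replicates 1 to 3 the shares were 33.6% (28.8 to 38.8), 21.4% (17.9 to 25.3) and 16.5% (13.4 to 20.1). All BE shares lay above all NC shares, and the intervals cover counting error only. The means were 72.6% ± 7.87 in BE and 23.8% ± 8.83 in NC (SD, n = 3), 48.8 percentage points apart (two-sided exact permutation test, p = 0.1, the smallest that 3 against 3 can give). Counts were not divided by transcript length, so the share compares libraries and not the amounts of the 2 enzymes' RNA.

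Ptges, microsomal prostaglandin E synthase 1, works downstream of cyclooxygenase 2 and makes PGE2. It stood at 23.5, 27.8 and 21.3 CPM in BE and at 5.23, 1.01 and 3.95 in NC. NC replicate 2, with 15 counts, was the lowest library, and no BE library came near the NC range. The log2 fold change was 2.85 ± 0.51 (SE), a 7.21-fold rise (edgeR adjusted p = 0.00253) at place 299 of all genes by fold change. It was 2.40 to 3.29 with each library left out in turn.

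Ptgis, prostacyclin synthase, competes with the PGE2 synthases for PGH2 and is known from vessel walls and smooth muscle. Its levels were 3.06, 9.23 and 5.29 CPM in BE and 17.5, 13.0 and 13.6 in NC. All BE libraries were below all NC libraries, as for 27.8% of all genes tested, and the log2 fold change was -1.33 ± 0.38 (SE; edgeR adjusted p = 0.0181). Of the 7 calls this was the only one lost in any of 12 alternative fits. It ended without BE replicate 3 (-1.25, edgeR adjusted p = 0.0685), without NC replicate 1 (-1.19, adjusted p = 0.0728) and with library totals as scaling (-1.03, adjusted p = 0.0501). Smooth muscle markers summed to 4687 to 5535 CPM in NC and 603 to 705 in BE, where 9 of 10 tested fell. Endothelial markers summed to 451 to 510 CPM in NC and 506 to 623 in BE, where 4 of 13 tested rose and none fell. The part of either cell type in the Ptgis value was not tested.

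Slco2a1 encodes the prostaglandin transporter, which takes PGE2 up from outside the cell. Its levels were 39.9, 40.7 and 51.5 CPM in BE and 27.4, 12.1 and 14.0 in NC. NC replicate 1 was higher than the other NC libraries, but stayed below all BE libraries. The log2 fold change was 1.31 ± 0.30 (SE), a 2.48-fold rise (edgeR adjusted p = 0.00722).

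Hpgd encodes 15-hydroxyprostaglandin dehydrogenase, which takes the first step in breaking PGE2 down. It was at 97.3, 84.9 and 98.2 CPM in BE and at 151, 147 and 138 in NC. Within each group the libraries lay close together, and the groups did not overlap. The log2 fold change was -0.64 ± 0.11 (SE; edgeR adjusted p = 0.00103), so NC was 1.56-fold higher, the smallest change among the 7 called genes. With library totals as scaling it was -0.35.

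Setting the PGE2-making against the PGE2-degrading transcript within each library removes the scaling between libraries. The log2 ratio of Ptges to Hpgd counts, with 0.5 added to each, was -2.05, -1.61 and -2.21 in BE and -4.84, -7.14 and -5.11 in NC. Every BE library had the higher ratio, and NC replicate 2 stood lowest. The mean was -1.96 ± 0.31 in BE and -5.70 ± 1.26 in NC (SD, n = 3), a difference of 3.74 (two-sided exact permutation test, p = 0.1, again the smallest possible). Without NC replicate 2 the difference was 3.02.

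**Figure D2:**
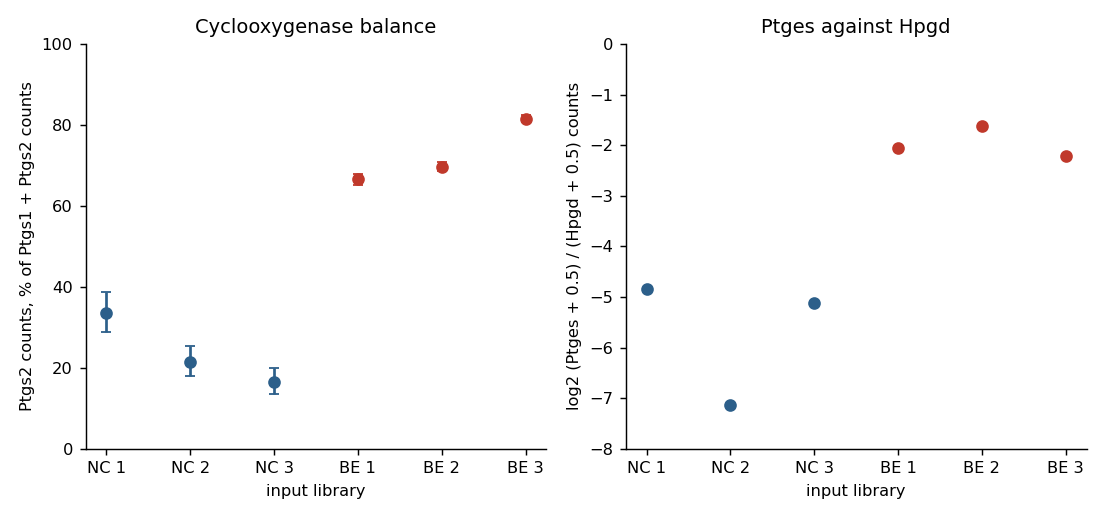
Left, Ptgs2 counts as a percentage of Ptgs1 plus Ptgs2 counts in each input library, with 95% Wilson intervals. Right, the log2 ratio of Ptges to Hpgd counts per library. The BE shares lie between 66.6% and 81.5% and the NC shares between 16.5% and 33.6%, and the BE ratios all lie above the NC ratios.

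The EP receptors were low in both groups, and none of the 3 passed a test. Ptger3 encodes EP3, which lowers cyclic AMP. It stood at 1.897, 2.87 and 1.97 CPM in BE and 3.02, 3.83 and 4.45 in NC. The groups did not overlap, but the log2 fold change of -0.75 ± 0.48 (SE) did not pass (edgeR adjusted p = 0.242). Ptger4 encodes EP4, which raises cyclic AMP. Its levels of 2.79, 2.75 and 2.19 CPM in BE lay inside the NC values of 4.63, 1.54 and 4.88, with a log2 fold change of -0.51 ± 0.55 (SE; edgeR adjusted p = 0.493). Ptger2, which encodes the other receptor that raises cyclic AMP, EP2, had 12, 5 and 6 counts in BE and 2, 6 and 2 in NC. That was too few to test, and no difference could be detected at this depth. RefSeq places a noncoding gene or pseudogene across each of Ptger2, Ptger3, Ptger4 and Slco2a1, and the sources used here do not say whether counting used strand.

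**Figure D3:**
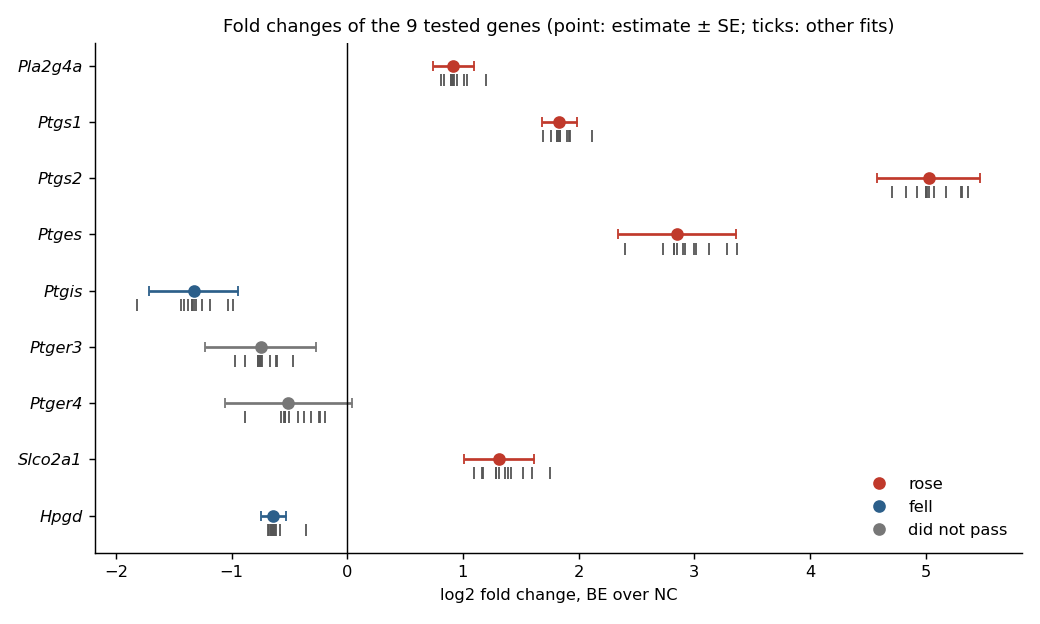
Log2 fold change of BE over NC for the 9 tested genes, as estimate ± SE, colored by whether the gene rose, fell or did not pass, with ticks below for 12 other fits. Ptgs2 lies at 5.03 and Hpgd at -0.64, and each gene's ticks lie on the same side of 0 as its point.

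The rest of the pathway was described from 6 lists, with log2 fold changes given ± SE and mean CPM ± SD (n = 3). Each list's shares stand beside the 21.8% of all tested genes that rose and the 21.8% that fell, and no list was tested as a set. Among phospholipases A2 and related lipases, 4 of 14 tested genes rose (28.6%) and 5 fell (35.7%), with a median log2 fold change of -0.55. The 4 risers were the group IV relatives of Pla2g4a that lie together on chromosome 3 of GRCr8: Pla2g4b, Pla2g4d, Pla2g4e and Pla2g4f. Pla2g4e rose by 2.92 ± 0.12 on the log2 scale, from 60.7 ± 6.09 to 460 ± 27.8 CPM (edgeR adjusted p = 9.81e-08). Pla2g4b rose by 2.43 ± 0.13 (edgeR adjusted p = 5.06e-07) and Pla2g4f by 1.91 ± 0.17 (adjusted p = 1.94e-05). Pla2g4d, at 1.49 ± 0.12, was named after its values were seen. RefSeq places Pla2g4b across part of Jmjd7 and Sptbn5, so its reads may be shared with theirs. The squamous markers given above rose in the same libraries, and their part in these values was not tested.

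The 5 lipases that fell included Pla2g16, a phospholipase known from fat tissue, at -2.17 ± 0.36 (edgeR adjusted p = 0.00137). Mgll, which frees arachidonic acid from a glycerol ester, fell by 1.36 on the log2 scale, and Pla2g3, Pla2g6 and Pla2g12a made up the rest. With each library left out in turn, 2 to 3 of the list fell rather than 5, and Pla2g3, Pla2g6 and Pla2g12a lost their calls in 9, 5 and 7 of 12 alternative fits. Pla2g2a, a secreted form, did not pass, with 52.4 ± 16.9 CPM in BE and 39.3 ± 20.9 in NC. Without NC replicate 1 it passed as a rise, at 0.94 (edgeR adjusted p = 0.0232). Neither did Pla2g2d, another secreted form, at 11.2 ± 8.68 and 19.0 ± 18.4 CPM.

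Among 12 other prostanoid synthases and related enzymes, 3 rose (25.0%) and 1 fell (8.33%), with a median of 0.24. Hpgds, hematopoietic prostaglandin D synthase, rose by 2.22 ± 0.39 on the log2 scale, from 5.20 ± 0.85 to 24.3 ± 12.1 CPM (edgeR adjusted p = 0.00159). Mast cells, a known source of prostaglandin D2, had marker sums of 66.6 to 75.9 CPM in NC and 40.3 to 49.0 in BE, where 2 of 9 tested fell. Their part in the Hpgds value was not tested. Ptges3, the cytosolic PGE synthase that is also the chaperone partner p23, rose by 0.95 ± 0.10, and the carbonyl reductase Cbr3 by 1.08 ± 0.19. Akr1b1, an aldose reductase with prostaglandin F synthase activity in humans, fell by 0.59 on the log2 scale (SE 0.17; edgeR adjusted p = 0.0169). Ptges2, the PGE synthase found in membranes of the Golgi, did not pass, with 10.8 ± 3.88 CPM in BE and 11.99 ± 0.96 in NC. Nor did Akr1c14, a hydroxysteroid dehydrogenase, whose 37.5 ± 45.7 CPM in BE had an SD larger than its mean. Akr1c14 stood at 90.3, 10.5 and 11.8 CPM in BE replicates 1 to 3 and at 16.1, 20.1 and 21.2 in NC. It was highest in the library with the hepatocyte markers, whose part in this value was not tested. With each library left out in turn, the same number rose and 0 to 2 fell.

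The list of other receptors had 7 tested genes, of which 3 rose (42.9%) and none fell, with a median of 0.75. The risers were Pparg and Ppard, nuclear receptors activated by fatty acids and lipid mediators, and Ptgfrn, a negative regulator of the PGF2-alpha receptor. Pparg rose by 1.23 ± 0.29 on the log2 scale, Ppard by 1.07 ± 0.12 and Ptgfrn by 0.75 ± 0.13. No cell-surface prostanoid receptor in the list passed the test. Ptgfr, the PGF2-alpha receptor, had 5.24 ± 1.29 CPM in BE and 9.33 ± 4.11 in NC, and Ptger1, which encodes EP1, had 1.69 ± 1.16 and 3.59 ± 0.88. Tbxa2r, the thromboxane receptor, was too low to test and is named after its values were seen. It had 25, 13 and 10 counts in BE replicates 1 to 3 and 1, 0 and 1 in NC, or 48 against 2 when pooled. The depth-scaled ratio of the pooled counts was 17.2, with a 95% interval of 4.50 to 146 that covers counting error only. That interval leaves out the spread between libraries and is not a test of the groups.

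Enzymes of breakdown and carriers split evenly, with 4 of 9 tested rising (44.4%) and 4 falling (44.4%) and a median of 0.52. Slco4a1, an organic anion carrier that can take up prostaglandins, rose by 2.30 ± 0.31 on the log2 scale, and Cyp4f17, a cytochrome of the fatty acid hydroxylase family, by 1.02 ± 0.35. Abcc4, which exports prostaglandins from cells, rose by 0.96 ± 0.11, and Ptgr1, a reductase for the step after Hpgd, by 0.67 ± 0.11. Cyp4f6 fell by 1.80 (SE 0.26) and Ptgr2, another prostaglandin reductase, fell by 1.05 (SE 0.13), with Zadh2 and Slco3a1 completing the falls. Cyp4f18 did not pass, with 4.11 ± 3.94 CPM in BE and 2.84 ± 2.10 in NC. With each library left out in turn, 3 to 4 rose and 2 to 3 fell, and Cyp4f17, Zadh2 and Slco3a1 each lost their call in 7 of 12 alternative fits.

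**Figure D4:**
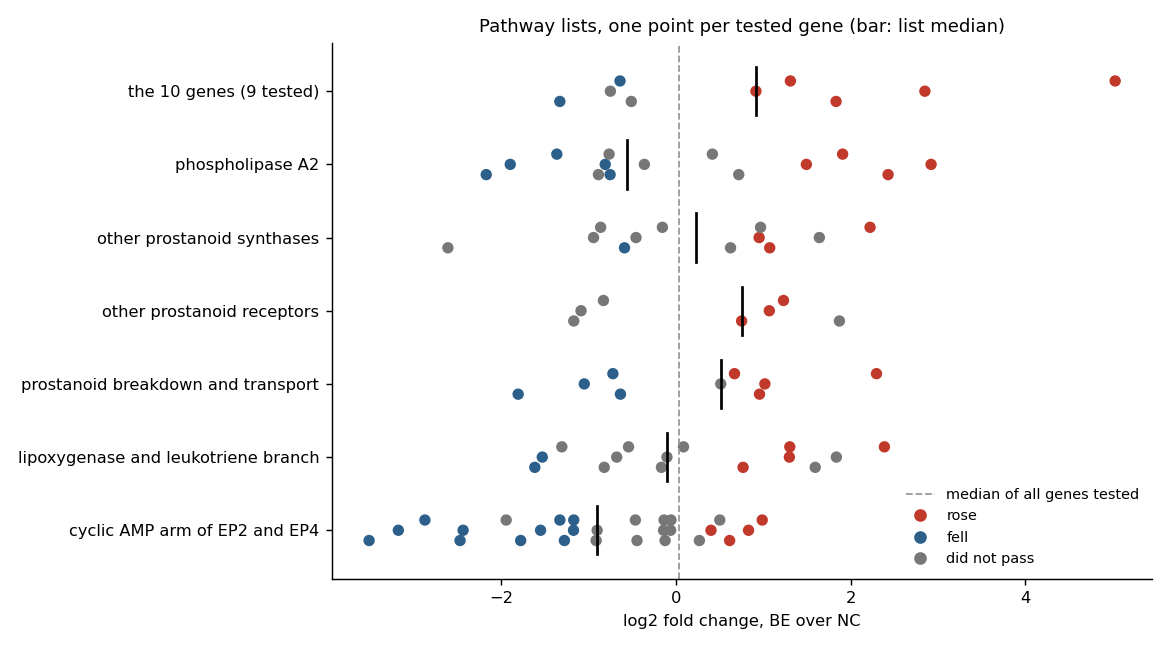
Log2 fold change of BE over NC for each tested gene of the 10 and of 6 other pathway lists, colored by call, with a bar at each list's median and a dashed line at the median of all genes, 0.03. Medians run from -0.90 in the cyclic AMP list to 0.92 in the 9 genes, and Ptgs2 at 5.03 is the point farthest right.

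Arachidonic acid also feeds the lipoxygenase branch, which includes leukotriene synthesis. Of 15 tested genes of that branch 4 rose (26.7%) and 2 fell (13.3%), with a median of -0.10. Alox5, the enzyme that starts leukotriene synthesis, fell by 1.53 (SE 0.40; edgeR adjusted p = 0.0113). The microsomal glutathione transferases moved in opposite directions: Mgst2, which can make leukotriene C4, rose by 2.39 ± 0.18 and Mgst1 by 1.30 ± 0.40, while Mgst3 was at -1.61 ± 0.23. Mgst1 stood at 123.5, 61.6 and 42.5 CPM in BE replicates 1 to 3, highest in the library with the hepatocyte markers, and its log2 fold change was 0.79 without that library. Its call was kept there (edgeR adjusted p = 0.00619) but lost in 6 of 12 alternative fits. Lta4h, which makes leukotriene B4, rose by 0.77 ± 0.16, as did its receptor gene Ltb4r by 1.30 ± 0.47, a call lost in 7 of the 12 fits. The epidermal lipoxygenases Alox12b and Aloxe3, which act in the skin barrier, stood at 343 ± 54.8 and 79.0 ± 17.1 CPM in BE and at 322 ± 45.3 and 84.7 ± 3.38 in NC, and did not pass. Leaving out a library gave 2 to 4 rises and 1 to 4 falls.

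The last list held genes of cyclic AMP signaling, the route that EP2 and EP4 use. Of 27 tested, 11 fell (40.7%) and 4 rose (14.8%), with a median of -0.90. The list pools adenylate cyclases, which make cyclic AMP, with phosphodiesterases, which break it down, so its counts give no direction for the signal. Among the falls were the adenylate cyclases Adcy2, at -3.51 ± 0.28, and Adcy9, at -3.17 ± 0.19, the phosphodiesterase Pde4a, at -2.87 ± 0.60, and the transcription factor Creb5, at -2.47 ± 0.30. The 4 risers were Adcy3, Prkar2b, Creb1 and Rapgef3, of which Prkar2b kept its call in all 12 alternative fits. Prkar1a and Prkar2a, regulatory subunits of protein kinase A, did not pass and stood at 146 ± 36.7 and 145 ± 28.9 CPM in BE against 161 ± 18.1 and 158 ± 8.99 in NC. Striated and smooth muscle markers fell in the same libraries, and their part in these values was not tested. Leaving out a library gave 10 to 13 falls and 1 to 4 rises.

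The m6A lists held 113141 peaks over the 6 IP libraries, which merged into 29269 regions. Of 11048 regions with 1 peak in each list, 80.3% had the same start and end in all 6 lists. Peak borders in different lists therefore cannot be taken as set separately. The table of input counts and the peak lists are separate measurements, and IP depth is unknown. Of the 10 genes, 5 had a peak named for them: Ptges, Hpgd, Ptger3, Ptger4 and Slco2a1. Among tested genes with a symbol, 26.8% had no peak in any list. Ptges, Ptger4 and Slco2a1 had a peak in all 6 lists, as had 46.9% of the tested genes with a symbol. By gene, 1.83% of tested genes with a symbol had peaks in every BE list and no NC list, 1.7% had the reverse, and none of the 10 genes had either. The lists used here named no peak for Ptgs1, Ptgs2, Pla2g4a, Ptger2 or Ptgis.

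Ptgs2, the strongest riser of the 10, was thus among the genes with no listed peak in spite of its high counts in BE. Of 566 tested genes with a BE mean at least as high as the 259.7 CPM of Ptgs2, 34.1% had no peak, against 26.8% of all tested genes with a symbol. A lack of a listed peak does not show a lack of methylation, since the lists start at a score of 50, a scaled negative log10 of p.

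Ptges carried 3 regions, of which 2 were in every BE list and no NC list, a pattern seen in 4.31% of all regions. No region of the 10 genes was in every NC list and no BE list, as 2.58% of all regions were. Peak coordinates are those of the lists, whose genome build the sources used here do not name, and are not comparable with GRCr8. The region at chr3:15086726-15087727 was in all 6 lists, but its peaks did not have the same borders in every list. The authors' fold enrichment there was 10.6, 14.0 and 17.9 in BE and 18.0, 14.7 and 22.0 in NC. The BE-only region at chr3:15097902-15098070 had fold enrichments of 11.04, 8.58 and 9.35, at percentiles 62.3, 44.5 and 54.0 of the peaks in each list. The BE-only region at chr3:15095545-15095627 had 3.08, 3.46 and 7.26, at percentiles 1.32, 2.21 and 40.6. Ptges RNA was itself 7.21-fold higher in BE input. A peak needs enough RNA to be called, and whether these regions reflect more methylation per transcript was not tested.

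Ptger4 had 2 regions, at chr2:73975576-73976177 and chr2:73985333-73986264, both in all 6 lists, as 38.1% of all regions were. The first had fold enrichments of 15.9, 14.4 and 17.6 in BE and 18.5, 16.7 and 27.1 in NC, and the second 10.5, 10.8 and 12.1 in BE and 8.70, 9.60 and 8.64 in NC. Slco2a1 had a region in all 6 lists at chr8:110966574-110968065, with fold enrichments of 19.3 to 32.8. Slco2a1 rose in the input libraries and Ptger4 did not pass, and both had these regions in every list.

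None of the remaining regions was in all 3 lists of a group. A second Slco2a1 region, chr8:110886314-110886495, was listed in NC replicate 2 only. The Ptger3 region, chr2:282680844-282681003, was listed in NC replicates 1 and 2, and the Hpgd region, chr16:37261430-37261593, in BE replicate 1 only, at a fold enrichment of 3.04. The 10 genes had 7, 6 and 6 peaks in the BE lists and 5, 6 and 4 in the NC lists, a difference of 1.33 (two-sided exact permutation test, p = 0.3). The lists themselves ran from 16644 to 20531 peaks.

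**Figure D5:**
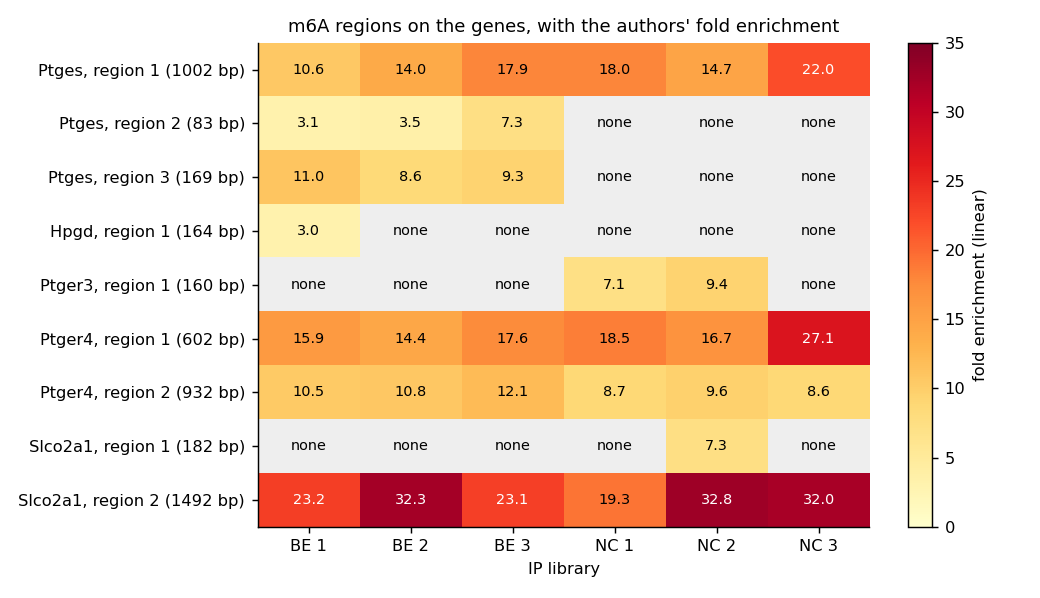
The 9 m6A regions on the genes by IP library, with the authors' linear fold enrichment in each cell and gray where a list held no peak. Ptges regions 2 and 3 are filled in the 3 BE columns only, and 4 regions are filled in all 6 columns. Enrichments were set by the caller within each library and are not scaled between columns.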

How the data were processed

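Input and m6A IP libraries of 3 BE and 3 NC rat esophagus samples were grouped by the labels' titles. Per the submitters' processing notes, cutadapt 1.9.3 and HISAT2 2.0.4 were used. For the build, annotation, counting tool and strand setting: not given in the sources used here. The authors deposited whole-number counts per gene for the 6 input libraries; another 6 per-sample columns of that table were left unused. Per the file headers, each IP peak list gives positions, a score that scales the negative log10 of p, and a fold enrichment as a linear ratio, both the authors' own values. Peak starts were taken to be 0-based and are printed 1-based. There was 1 list per IP library.

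The quasi-likelihood test of edgeR 4.0.16 (R 4.3.3) compared BE with NC, two-sided and without covariates, after filterByExpr (at least 10 counts, which meant 0.629 CPM, in 3 or more libraries), TMM scaling and a robust fit. Benjamini-Hochberg adjustment ran over 13761 genes, with a threshold of 0.05. The SE of an edgeR log2 fold change was derived as its absolute value divided by the square root of the test's F statistic. Printed CPM are counts over the TMM-scaled sum of tested genes, and the common biological coefficient of variation was 0.324. Where several genes shared a symbol (210 symbols), the most abundant was used. Within groups, libraries differed by chi-square statistics of 20.6 to 74.0 per gene, so none was a copy of another. Peaks went to genes by the lists' own gene names and were merged into regions by at least 1 bp of overlap. Alternatives used limma 3.58.1 (voom) and DESeq2 1.42.0, and the fits were tested on simulated data. Tables were handled in Python 3.11.15 with pandas 2.3.3 and NumPy 2.4.6, exact tests in SciPy 1.17.1, and figures in matplotlib 3.10.9.

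The members and lists were chosen with earlier results of these data known. Named were the 10 genes, and of each other list the 4 passing genes with the largest change and the 2 others with the highest mean CPM. Other genes named complete a count of 5 or fewer, a choice made once their values were known.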

Additional observations from a re-analysis of the deposited data

How the results depend on the processing

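Pla2g4a, Ptgs1, Ptgs2, Ptges, Slco2a1 and Hpgd kept their direction and their call in all 12 alternative fits, with log2 fold changes of 0.81 to 1.20, 1.69 to 2.12, 4.71 to 5.37, 2.40 to 3.37, 1.10 to 1.75 and -0.69 to -0.35. Library totals gave 4536 rises over all genes, left Ptgis at -1.03 and so 1 of the 10 genes falling. Ptgis ran from -1.81 to -0.99 with each replicate left out in turn, and 1 to 2 of the 10 genes fell. Replicate numbers are shared between the groups, but same-numbered libraries did not deviate together (correlations of -0.05, 0.0014 and -0.08). Such values cannot exclude a shared batch, which the labels do not give. With the replicate block 2540 genes rose and 2683 fell, and no call among the 10 genes changed. In that fit 3 phospholipases fell, 2 genes of breakdown and transport fell and 2 of the cyclic AMP list rose.

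In the other lists, library totals left 2 phospholipases, 0 synthases and 2 genes of breakdown and transport falling; voom gave 3 falling synthases, and no filter on low counts 2 rising genes of the lipoxygenase branch. With each replicate left out, falls numbered 2 to 3 among phospholipases, 0 to 2 among synthases, 2 to 3 in breakdown and transport and 1 to 4 in the lipoxygenase branch, and rises 2 to 4 in that branch and 1 to 4 in the cyclic AMP list. Some genes that did not pass turned direction. With library totals these were Ptges2 (0.14), Aloxe3 (0.18), Prkar1a (0.15) and Prkar2a (0.16), and with voom Akr1c14 (-0.12). With each replicate left out in turn, the log2 fold change ran from -1.60 to 0.39 for Pla2g2d, -0.76 to 1.38 for Akr1c14, -0.33 to 0.11 for Ptges2, -0.47 to 1.07 for Cyp4f18, -0.061 to 0.20 for Alox12b, -0.30 to 0.015 for Aloxe3, -0.36 to 0.034 for Prkar1a and -0.27 to 0.049 for Prkar2a. Without BE replicate 1, Akr1c14 passed as a fall (edgeR adjusted p = 0.0256). Pla2g2a ran from 0.11 to 0.94 and passed without NC replicate 1. Of the passing genes in these lists, Pla2g3 lost its call in 9 of 12 alternatives, Pla2g12a, Zadh2, Slco3a1, Cyp4f17, Ltb4r and Rapgef3 in 7, Mgst1 in 6, Pla2g6, Akr1b1 and Adcy5 in 5, Adcy3 and Creb1 in 4 and Alox5 in 1. The cause was not tested.

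Asking for a score of at least 100 or a fold enrichment of at least 5 left 1 BE-only region on Ptges. With the latter the difference in peaks per list was 0.333. Leaving out NC IP replicate 3 made the Ptger3 region NC-only, so the number of NC-only regions ran from 0 to 1. Ptger2 was limited by depth. Without the filter it had a log2 fold change of 0.72 ± 1.37 (SE; edgeR adjusted p = 0.717).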

Other observations

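Among 10741 genes with a mean of at least 5 CPM, those that followed a member most closely over the 6 input libraries were sought. They were ranked by Pearson's r of log2 CPM. The 6 points fall into the BE and NC groups, so a high r mostly records a shared difference between groups, and r does not depend on its size. For Ptgs2 these were Rps7, a ribosomal protein (r = 0.999), Wdr70 and Stxbp5, all with log2 fold changes between 0.44 and 0.45 where Ptgs2 had 5.03. For Ptges they were the histone demethylase Kdm5a (r = 0.998), the splicing factor Snrpb and AABR06024097.1, at 0.24, 0.65 and 2.44. For Hpgd they were Asb5 (r = 0.999), Akap11 and Nfix, at -4.30, -0.66 and -1.54.

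In the cyclic AMP list, 18 of 28 genes had an m6A peak in all 6 lists, beside 46.9% of all tested genes with a symbol. Adcy2, Pde4a, Pde4c and Creb5 had peaks in every NC list and no BE list. Adcy2, Pde4a and Creb5 were among the genes that fell in the input libraries, while Pde4c did not pass. Summed input counts were 418 in BE and 3336 in NC for Adcy2, and 66 and 358 for Pde4a. They were 25 and 71 for Pde4c and 408 and 1593 for Creb5. A peak needs enough RNA to be called, and whether these peaks reflect methylation per transcript was not tested. The share of tested genes with a symbol that had peaks in NC only was 1.7%. No gene of the other 5 lists had peaks in every list of 1 group and no list of the other. Among the group IV phospholipases, Pla2g4b, Pla2g4e and Pla2g4f had a peak in all 6 lists, as had 46.9% of tested genes with a symbol.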
